A study of Mus musculus with 30 samples.

Results

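RNF and TRIM proteins are 2 large families of ubiquitin ligases, and the mRNAs that encode them were examined in mouse spermatogonial stem cell (SSC) lines. Members were chosen by gene symbol, as symbols that begin with Rnf or Trim followed by a digit, with *Rnf2* left out, and no measured value was used. Of 14558 genes with a value, 113 were members, 73 of them RNF and 40 TRIM. An mRNA level was at hand for 110 members and a half-life for 54, and 51 members had both. Members are different genes and not replicates of a condition.

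Ubiquitin is activated by an E1 enzyme, passed to an E2 enzyme, and attached to a protein that an E3 ligase selects. Ligases with a RING domain hold the loaded E2 next to the substrate, and most RNF and TRIM proteins carry this domain, which TRIM proteins combine with B-box and coiled-coil domains. The attached ubiquitin can send the substrate to the proteasome or change its place or its partners. In germ cells such ligases take part in chromatin silencing, in the response to broken DNA and in meiosis.

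SSCs are the stem cells of the male germline, and the lines were derived from testes of 7-day-old mice of a mixed C57BL/6 and DBA/2J background and kept on fibroblast feeders. Both lines carried the *Nanos2* TAG allele, which adds V5, Myc, PreScission, 6xHis and EGFP sequences to NANOS2, an RNA-binding protein of SSCs, and line 4 was *Nanos2* TAG/+ and line 5 *Nanos2* TAG/TAG. RNA-seq covered 1 library per line of total RNA depleted of ribosomal RNA. In SLAM-seq, a method that marks RNA with 4-thiouridine and follows its loss in reads from the 3′ end, 12 libraries per line covered chases of 0, 30, 60, 120, 540 and 1440 min, with 2 technical replicates each. Each genotype was a single line, and the labels give QIAzol as the extraction reagent for the TAG/+ RNA-seq library and Trizol for the TAG/TAG library, so genotype, line and reagent cannot be told apart. The files hold 1 value per gene and line, so no difference between the lines has a replicate check and none was tested.

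The mRNA level is given as FPKM (fragments scaled to transcript length and to a depth factor of the library), so that levels of different genes can be set side by side. The length was the mean over all annotated transcripts of a gene, 1009.5 bases for *Trim28* and 747 for *Rnf25*. An order of levels between genes therefore depends in part on the annotation. The depth factors recovered from FPKM were 10908790 (TAG/+) and 11738620 (TAG/TAG). They are not read totals, as the recovered reads summed to 10931439 and 11627842. SSC markers were present in both, with a *Zbtb16* level of 107 FPKM (TAG/+) and 102 FPKM (TAG/TAG). At least 2-fold higher in TAG/TAG were 4 of 12 SSC markers, among them *Ret* (73.2 and 181 FPKM), beside 11.7% of all genes. None was 2-fold higher in TAG/+, but *Nanos2*, *Zbtb16*, *Id4*, *Sall4* and *Nanos3* were lower in TAG/TAG by less than 2-fold. Fibroblast markers, 10 of 11 listed, summed to 325 FPKM (TAG/+) and 396 FPKM (TAG/TAG) and ranged from 0.66 to 254 and from 2.06 to 280. Of the 10, 3 were at least 2-fold higher in TAG/TAG, beside the same 11.7% of all genes. Markers of differentiating germ cells, 6 of 8 listed, summed to 508 and 306 FPKM, and interferon-response genes, 12 of 18 listed, to 252 and 221 FPKM. Their part in the results below was not tested. In bulk RNA, fewer cells of a type and less RNA per cell cannot be told apart.

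RNF mRNAs were present at higher levels than TRIM mRNAs. The median level of all members was 15.5 FPKM in TAG/+ and 14.8 in TAG/TAG, beside 10.2 and 10.5 for all 13904 genes. RNF members had medians of 16.2 and 15.8 FPKM and TRIM members of 7.16 and 6.88. Across members, the order of levels was nearly the same in both lines (Spearman's rho 0.96 across 110 genes, which are not independent replicates). Only 10 members had a mean level under 1 FPKM.

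*Trim28* stood far above the other members. It encodes KAP1, the corepressor that KRAB zinc finger proteins bring to retrotransposons, and its mRNA level was 952 FPKM in TAG/+ and 815 in TAG/TAG. *Rnf44* came next, with 296 and 419 FPKM, and then *Rnf167*, a membrane-bound ligase of the endosome and lysosome, with 204 and 365. *Rnf216*, a RING-between-RING ligase, was level between the lines with 249 and 240 FPKM. The remaining 6 of the 10 most abundant lay between 126 and 187 FPKM in TAG/+ and between 136 and 154 in TAG/TAG. They were *Rnf25*, *Rnf4* (which recognises SUMO-modified proteins), *Rnf187*, *Rnf220*, *Rnf40* (which with *Rnf20* attaches ubiquitin to histone H2B) and *Rnf126* (quality control of stray membrane proteins).

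Half-lives of the members ran shorter than those of all transcripts by a small margin. The median was 208 min in TAG/+ and 210 min in TAG/TAG, beside 224 and 226 min for all 5806 transcripts. Of the 54 members, 27 (50%) lay below the median of all transcripts in both lines, beside 39.8% of all transcripts. Above it in both lines lay 17 members (31.5%), also beside 39.8%, and 10 were on different sides. A half-life under 120 min in both lines was found for 8 members (14.8%), beside 6.37% of all transcripts. Members ranged from 39.6 to 825 min in TAG/+ and from 53.3 to 1735 min in TAG/TAG, and their order was similar between lines (rho 0.85 across 54 transcripts, beside 0.77 across all). RNF members had medians of 212 and 200 min, and TRIM members of 193 and 231 min. The TRIM median in TAG/TAG was thus not below the 226 min of all transcripts.

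**Figure D1:**
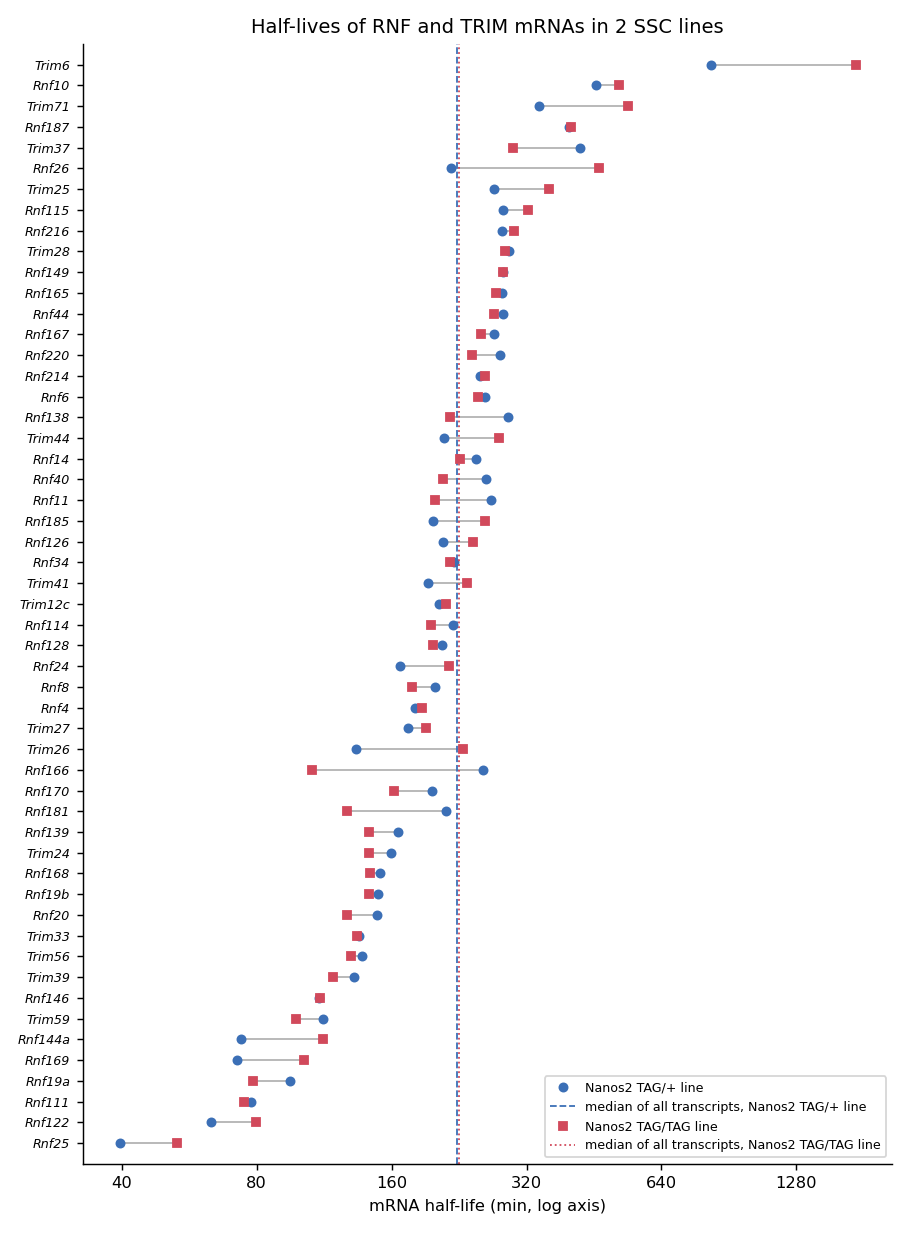
Half-lives in min (log axis) of 53 of the 54 RNF and TRIM mRNAs with a value, sorted by the mean of both lines, with 1 point per line (circles TAG/+, squares TAG/TAG) and dashed or dotted lines at the medians of all 5806 transcripts (224 and 226 min). *Rnf25* lies lowest at 39.6 and 53.3 min and *Trim6* highest at 825 and 1735 min. The points are the authors' fitted values and have no error bars.

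The shortest-lived member was *Rnf25*. It encodes a ligase that acts on stalled ribosomes together with RNF14, and its half-life was 39.6 min in TAG/+ and 53.3 min in TAG/TAG. Only 5 and 55 of 5806 transcripts had shorter ones. Its level was 178 FPKM in TAG/+ and 154 in TAG/TAG, so it was also among the most abundant members. Among the 1784 transcripts with a mean level of at least 50 FPKM and a half-life, 0 in TAG/+ and 1 in TAG/TAG had a shorter half-life than *Rnf25*. The gene lies at chr1:74593748-74601397 (GRCm38, minus strand), none of its 50-base windows occurred in another gene, and its annotated 3′ untranslated region (UTR) spans 76 bases, the shortest of the 54 members.

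The next shortest half-lives belonged to ligases of several kinds. *Rnf122*, a small membrane-bound ligase, had half-lives of 63.4 min (TAG/+) and 79.9 min (TAG/TAG). *Rnf111* (Arkadia), which removes repressors of TGF-β signalling, had 77.7 and 74.8 min, and *Rnf19a*, a RING-between-RING ligase, had 95.1 and 78.6 min. *Rnf169*, which binds ubiquitinated chromatin at DNA breaks, had 72.2 and 102 min. *Rnf144a*, another RING-between-RING ligase, had 73.7 and 112 min. All of them lay well under the medians in both lines. *Trim59* (113 and 97.8 min), *Rnf146*, *Trim39* and *Trim56* completed the 10 shortest. For *Rnf146*, the ligase of poly(ADP-ribosyl)ated proteins such as axin (110 and 111 min), 73.2% of its 50-base windows also occur in other genes, so its values are uncertain.

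At the other end was *Trim6*, a TRIM of innate immunity, with 825 min in TAG/+ and 1735 min in TAG/TAG. The second value lies beyond the last chase time of 1440 min. *Rnf10*, which ubiquitinates small ribosomal subunit proteins, followed with 458 and 516 min. *Trim71* (LIN-41), an RNA-binding protein of germ cells and embryos, had 341 and 539 min, *Rnf187* 397 and 402 min, and *Trim37*, a regulator of centriole number, 422 and 299 min. *Rnf26*, *Trim25*, *Rnf115*, *Rnf216* and *Trim28* completed the 10 longest. The abundant *Trim28* had 293 and 287 min.

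Abundant transcripts tend to be longer-lived in these data, so members were compared within classes of mean FPKM. The rank correlation (rho) between half-life and mean FPKM was 0.47 (TAG/+) and 0.44 (TAG/TAG) for members and 0.49 and 0.47 for all transcripts. Under 10 FPKM, the median of 12 members was 144 min in TAG/+ and 136 min in TAG/TAG, beside 158 and 156 min for all. From 10 to 25 FPKM, 10 members had 158 and 171 min, beside 200 and 202 min. From 25 to 50 FPKM, 10 members had 210 and 237 min beside 225 and 227 min, so in TAG/TAG they were not below. At 50 FPKM or more, 19 members had 256 and 243 min, beside 273 and 281 min. In all, 28 of 51 members lay below the median of their class in both lines, beside 38.4% of all transcripts.

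**Figure D2:**
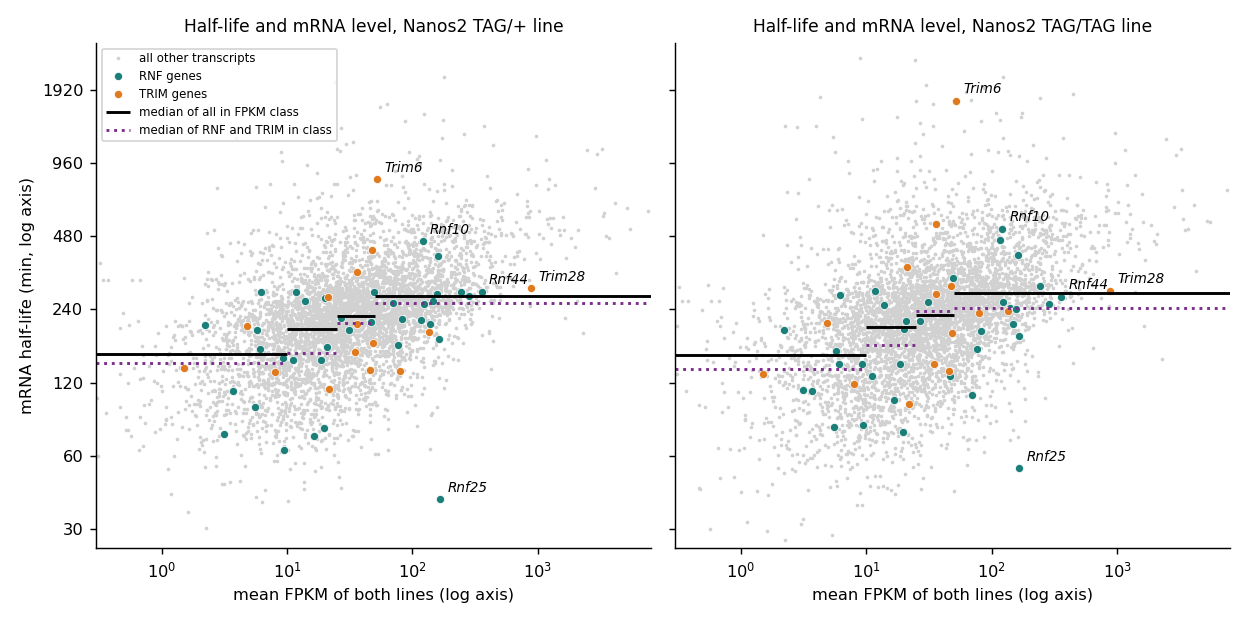
Half-life in min against mean FPKM of both lines (log axes) in TAG/+ (left) and TAG/TAG (right), with RNF and TRIM members in colour over all other transcripts in grey. Solid and dotted bars give the medians of all transcripts and of members in each FPKM class. *Rnf25* stands at 39.6 and 53.3 min under the other transcripts of its level, and *Trim6* near the top of each panel.

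A half-life was listed more often for members than for genes in general, in 46.4% of members with an FPKM and in 37.1% of all genes, but not at every level. The share was 25% of members and 15.1% of all genes under 10 FPKM, 45.5% and 48.2% from 10 to 25 FPKM, 50% and 59.4% from 25 to 50 FPKM, and 95% and 67.6% at 50 FPKM or more. Members with a half-life had a median level of 36.1 FPKM, and those without one 3.49 FPKM. Abundant members without a half-life included *Rnf157* (52.3 and 65.6 FPKM), *Rnf17* (a Tudor protein of germ cells, 45.5 and 47.0 FPKM) and *Trim35*. For *Rnf8*, *Rnf14* and *Rnf138*, FPKM was not used here, and their half-lives were 200 and 178 min, 247 and 228 min, and 291 and 216 min.

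By role, the ligases of the nucleus and of the DNA damage response were mostly below the median half-life. Of 8 with a half-life, 6 lay below the median of all transcripts in both lines, beside 39.8% of all transcripts, and 0 above it. Their medians were 166 min (TAG/+) and 161 min (TAG/TAG), beside 224 and 226 min for all, and *Rnf8* lay close to the median of all members in TAG/+. The list had a median level of 13.1 and 13.9 FPKM, and all transcripts from 10 to 25 FPKM had medians of 200 and 202 min. The part of level was not tested. *Rnf4* (180 and 187 min) had an FPKM of 184 and 143. *Rnf40* (259 and 208 min) was longer-lived than its partner *Rnf20* (148 and 127 min) in both lines. The DNA break ligase *Rnf168* had 151 and 143 min. None of the 7 with a mean level of at least 1 FPKM was 2-fold apart between lines.

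Among the TIF1 TRIM proteins, chromatin readers and corepressors, *Trim28* differed from its relatives. *Trim24* had a half-life of 160 min in TAG/+ and 143 min in TAG/TAG and *Trim33* of 135 and 134 min, beside 293 and 287 min for *Trim28*. Their levels were 32.8 and 36.3 FPKM and 40.6 and 51.3 FPKM, far below *Trim28*.

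RING-between-RING ligases, which pass ubiquitin through a cysteine of their own, had median half-lives of 149 and 143 min, with 3 of 5 below in both lines and 2 above. The abundant *Rnf216* (282 and 300 min) and *Rnf14* were the 2 above. *Rnf31* (HOIP), which builds linear ubiquitin chains, had 28.7 and 36.5 FPKM. Ligases of the endoplasmic reticulum and other membranes had medians of 182 and 189 min, with 4 of 6 below in both lines and 0 above. For both lists, the share over all transcripts was 39.8% below and 39.8% above. The RING-between-RING list had a median level of 5.80 and 5.25 FPKM, and all transcripts under 10 FPKM had medians of 158 and 156 min. The membrane list had a median level of 16.5 and 13.7 FPKM, and all transcripts from 10 to 25 FPKM had 200 and 202 min. The part of level was not tested. The membrane list had a summed level of 221 FPKM in TAG/+ and 283 in TAG/TAG. The gap between lines was wider for *Rnf26* alone (83.9 and 149 FPKM) than for the sum, and 69.1% of its 50-base windows occur in other genes.

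Innate immune TRIM mRNAs were split. Of 5 with a half-life, 2 lay below in both lines (*Trim12c*, *Trim56*), beside 39.8% of all transcripts. Above in both lines lay 2 (*Trim6*, and *Trim25*, the TRIM that acts on RIG-I), also beside 39.8%. The most abundant member of this list, *Trim26*, had 82.7 and 77.3 FPKM. Of the list of small adaptors, cullin partners and ribosome-acting ligases, 2 of 4 lay below and 1 above, from *Rnf25* to *Rnf10*. The share over all transcripts was again 39.8% each way. The NHL and growth-cone TRIM list had a half-life only for *Trim71*, whose level was 42.5 and 30.0 FPKM, and *Trim3* was next with 34.1 and 31.5 FPKM. Among protease-associated-domain ligases, *Rnf167* (271 and 253 min) and *Rnf149* lay above in both lines and *Rnf128* below. Of the muscle TRIM list, 1 of 4 had an FPKM, *Trim63*, with 17 and 9 reads. In the testis and meiosis list, *Rnf17* and the sperm ligase *Rnf141* (35.1 and 35.0 FPKM) were level between lines. *Rnf212* of the same list was higher in TAG/TAG, as described with the levels below, and *Trim69*, with a mean under 1 FPKM, had 26 reads in TAG/+ and 4 in TAG/TAG, 6.99-fold higher in TAG/+ (95% interval 2.43 to 27.6).

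The enzymes upstream of the ligases were longer-lived. Of 21 E1 and E2 mRNAs with a half-life, 19 lay above the median of all transcripts in both lines and 1 below, beside 39.8% each way. Their medians were 277 min in TAG/+ and 291 min in TAG/TAG. Their median level, 81.0 and 62.8 FPKM, was also higher than that of the RNF and TRIM mRNAs. All transcripts with a mean of at least 50 FPKM had medians of 273 and 281 min, and the part of level was not tested. Other RING ligases resembled the members, with medians of 200 and 214 min. Of 39, 19 lay below in both lines and 9 above, again beside 39.8% each way. These are descriptions of lists, and no difference between lists was tested.

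The study identified mRNAs bound by NANOS2 in SSCs, and 7 members, of the 110 with an FPKM, are on its list of 500 bound transcripts, beside 3.60% of all genes with an FPKM. The study ranked that list with the FPKM values used here, so it is not independent of them. The 7 are *Rnf7* (a RING subunit of cullin ligases), *Rnf11* (an adaptor of NEDD4-family ligases), *Rnf139* and *Rnf145* (sterol-responsive ligases of the endoplasmic reticulum), *Rnf149*, *Trim23* (which carries an ARF GTPase domain) and *Trim59*. Their levels ran from 2.35 FPKM (*Trim23*) to 28.0 FPKM (*Rnf145*) in TAG/+ and from 1.78 to 33.4 FPKM, in the same members, in TAG/TAG. A half-life was listed for 4. *Trim59* (113 and 97.8 min) and *Rnf139* (165 and 142 min) lay below the median of all transcripts in both lines, *Rnf149* (284 and 284 min) lay above, and *Rnf11* (267 and 200 min) was split.

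The annotated 3′ UTRs were searched on the sense strand for the NANOS2 motif, spelled out as AUGAAAU or AUGAAUU or AUUAAAU or AUUAAUU, because the study describes this motif in bound mRNAs. Of the 7 bound members, 5 held at least 1 match, and *Trim59* and *Rnf149* held none. A match was held by 46.0% of all 113 members and by 38.7% of 13084 genes. The study derived the motif from reads of the transcripts on its bound list. Matches in bound members are therefore not independent of that list, and the count is no test of the motif. The match nearest the stop codon is shown for each of the 5, with the motif in capitals and 10 bases on either side, in RNA letters read from GRCm38 along the transcript. The capitals lie in the 3′ UTR at chr15:58900454-58900460 (plus strand, exon 2) for *Rnf139*, chr11:44564584-44564590 (plus, exon 11) for *Rnf145*, chr4:109453890-109453896 (minus, exon 3) for *Rnf11*, chr9:96471604-96471610 (minus, exon 3) for *Rnf7* and chr13:104201499-104201505 (plus, exon 11) for *Trim23*.
Rnf139: agauuccuccAUGAAAUuggaauauau
Rnf145: gcgagggauaAUGAAAUcaggucugag
Rnf11: uuuuuccuaaAUGAAAUaaguuucuuc
Rnf7: ggcuugcuuuAUUAAUUugucuguuua
Trim23: aaaugugauaAUUAAUUuaguaugugu

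*Trim23* held 4 matches in 1607 bases, *Rnf11* 3 in 3153 bases, *Rnf139* 3 in 2256 bases, *Rnf145* 2 in 1235 bases and *Rnf7* 2 in 797 bases. The 3′ UTR of *Rnf139* lies within *Tatdn1* on the opposite strand and within a second gene model, *Gm49356*, on its own strand, and 24.9% of its 50-base windows occur in other genes, as do 27.4% of those of *Rnf7* and 22.6% of those of *Rnf149*.

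Matches to the motif were also common among the short-lived members that are not on the bound list. Each of the 5 shortest-lived after *Rnf25* held at least 1, whereas *Rnf25* held none. Of the others among the 10 shortest, *Rnf146* and *Trim56* held a match, and *Trim39* and the bound *Trim59* held none. A match was held by 41.8% of all transcripts, and by 55.9% of the shortest-lived of 3 equal groups. The 3′ UTRs of the 5 ran from 1436 bases (*Rnf19a*) to 5048 bases (*Rnf169*), beside a median of 1219 bases for all transcripts. The part of length was not tested. The match nearest the stop codon of each of the 5 is shown, again with the motif in capitals. The capitals lie at chr8:31129638-31129644 (plus strand, exon 6) for *Rnf122*, chr9:70426557-70426563 (minus, exon 15) for *Rnf111*, chr15:36241201-36241207 (minus, exon 10) for *Rnf19a*, chr7:99923658-99923664 (minus, exon 6) for *Rnf169* and chr12:26307519-26307525 (minus, exon 10) for *Rnf144a*.
Rnf122: uuuaaagaaaAUUAAAUuuaauaacau
Rnf111: cuugaaaauuAUGAAUUuuuuauccau
Rnf19a: ucauguugauAUUAAUUaccaaauuau
Rnf169: uuuuuaaaacAUGAAAUagucucauua
Rnf144a: guagaucacaAUGAAAUuuucaaggga

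Over all 54 members with a half-life, 27 (50%) held a match, beside 41.8% of 5781 transcripts with an annotated 3′ UTR. Members with a match had a median half-life of 171 min in TAG/+ and 178 min in TAG/TAG, and those without had 259 and 243 min. The same order held over all transcripts, with 196 and 200 min beside 245 and 247 min. When the 54 members were put into 3 equal groups by mean half-life, 72.2% of the 18 shortest-lived, 55.6% of the middle 18 and 22.2% of the 18 longest-lived held a match, beside 55.9%, 42.8% and 26.8% of all transcripts. The length of the 3′ UTR moved with the match, with a median of 2256 bases in members with one and 1176 bases in members without, and its part in the difference was not tested. Matches per kilobase had a rho with half-life of −0.35 (TAG/+) and −0.31 (TAG/TAG) across members and −0.25 and −0.22 across all transcripts. The length of the 3′ UTR alone had a rho of −0.17 and −0.11 across members and −0.27 and −0.26 across all transcripts. A match is a run of letters and not a measured binding site.

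**Figure D3:**
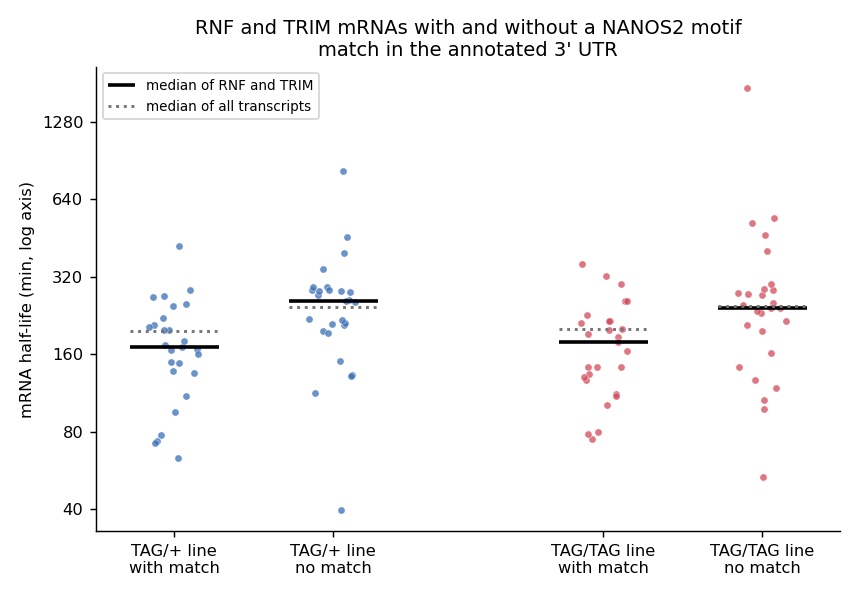
Half-life in min (log axis) of the 54 members in each line, split by whether the annotated 3′ UTR held a match to the NANOS2 motif (27 with, 27 without). Points are mRNAs, solid bars are medians of members (171 and 259 min in TAG/+, 178 and 243 min in TAG/TAG) and dotted bars are medians of all transcripts. The ranges of the groups overlap, and *Rnf25* is the lowest point among mRNAs without a match.

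AU-rich elements were also searched on the sense strand. AUUUA occurred in 83.3% of members with a half-life and in 72.6% of all transcripts, and members with and without it had median half-lives of 207 and 212 min in TAG/+ and 212 and 208 min in TAG/TAG, although only 9 members lacked it. Over all transcripts, those with AUUUA had 212 min (TAG/+) and 215 min (TAG/TAG) and those without 258 and 260 min. The number of AUUUA had a rho with half-life of −0.10 and −0.08 across members and −0.26 and −0.24 across all transcripts. The longer UUAUUUAUU, which contains AUUUA, occurred in 3 of the 54 members (5.56%), beside 8.82% of all transcripts.

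Between the lines, most half-lives differed by less than 1.5-fold. Of the 54, 7 (13.0%) differed by at least 1.5-fold, beside 20.7% of all transcripts. Longer in TAG/TAG by that limit were 5, beside 10% of all, and longer in TAG/+ were 2, beside 10.7%. The 5 were *Rnf26* (217 and 465 min, 2.14-fold), *Trim6* (2.10-fold), *Trim26* (133 and 231 min), *Trim71* and *Rnf144a*. Of the windows of *Rnf26*, 69.1% occur in other genes, among them *Gm49380*, a gene model that covers its 3′ UTR on the same strand. The 2 in the other direction were *Rnf166* (256 and 106 min, 2.4-fold longer in TAG/+) and *Rnf181* (212 and 127 min, 1.67-fold). The fits have no error, so it is not known which of these ratios exceed the precision of a half-life.

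Most levels were within 2-fold as well. Of 100 members with a mean of at least 1 FPKM, 9 (9%) were at least 2-fold apart on the log2(FPKM + 0.1) scale, beside 20.3% of all genes. In TAG/TAG 5 were higher, beside 11.7%, and in TAG/+ 4, beside 8.67%. At a mean of at least 10 FPKM, only *Rnf39* and *Rnf149* of 62 members were 2-fold apart, beside 9.59% of all genes. The median log2 difference (TAG/TAG minus TAG/+) of members was −0.06, and that of all genes was −0.00.

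*Rnf212*, which marks sites of meiotic crossing-over, had the widest gap on the log2(FPKM + 0.1) scale among members with reads in both libraries. Its level was 1.47 FPKM in TAG/+ (13 reads) and 16.5 FPKM in TAG/TAG (157 reads), a ratio of 11.2 (95% interval 6.38 to 21.5, exact Clopper-Pearson on the reads). Its paralog *Rnf212b* was level (9.11 and 8.88 FPKM). The cause of the gap in *Rnf212* was not tested. *Rnf43*, which removes Wnt receptors from the cell surface, had 4 and 49 reads, a ratio of 11.4 (4.17 to 43.4). *Rnf39* had 6.12 and 15.6 FPKM (59 and 162 reads), a ratio of 2.55 (1.88 to 3.50). *Trim12a* had 26 and 58 reads, a ratio of 2.07 (1.28 to 3.43), and was under 2-fold with a pseudocount of 1. Of its windows, 10.5% occur in other genes, among them its paralog *Trim12c*, which had 209 and 129 reads. *Trim47* had 0 and 37 reads, at least 11.5-fold higher in TAG/TAG against a floor of 3 reads in the library, and 6.58% of its windows occur in other genes. These intervals cover counting error only and not the spread between cultures.

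In the other direction, *Rnf128* (GRAIL), known from T cell tolerance, had 80 reads in TAG/+ and 21 in TAG/TAG (3.54 and 0.86 FPKM), 4.10-fold higher in TAG/+ (2.51 to 6.98). *Rnf135* (Riplet), which activates RIG-I, had 62 and 23 reads, 2.90-fold higher (1.77 to 4.91). The bound member *Rnf149* had 179 and 89 reads, 2.16-fold higher (1.67 to 2.82), while its half-life was 284 min in both lines. *Trim43a* had 23 and 0 reads, at least 8.25-fold higher in TAG/+ against the same floor, and 45.9% of its windows occur in its paralogs and another gene, so its reads cannot be placed with certainty. *Rnf208* and *Rnf122*, both higher in TAG/TAG with log2 differences of 0.97 each, were just under the 2-fold limit. Among the abundant members, *Rnf167* (1.79-fold, 1.71 to 1.88) and *Rnf44* (1.41-fold, 1.37 to 1.47) were higher in TAG/TAG and *Rnf187* was lower (0.73-fold, 0.69 to 0.77), all within 2-fold.

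**Figure D4:**
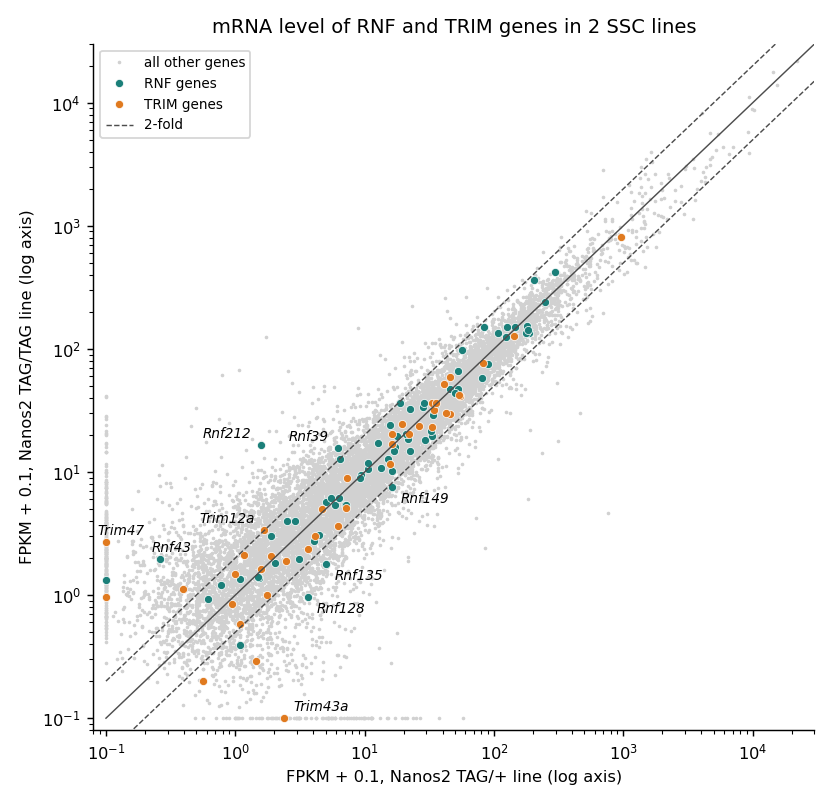
FPKM + 0.1 in TAG/TAG against TAG/+ (log axes) for the 110 members with an FPKM, RNF and TRIM in colour, over all other genes in grey, with 1 library per line. The solid line marks equal levels and the dashed lines 2-fold, and the 9 labelled members are those at least 2-fold apart with a mean of at least 1 FPKM. Points beyond the dashed lines without a label have a mean under 1 FPKM.

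*Rnf14* and *Rnf25*, which act together on stalled ribosomes, had half-lives of 247 and 228 min and of 39.6 and 53.3 min. *Rnf19a* and *Rnf19b*, paralogs, both lay below the median of all transcripts in both lines, with 95.1 and 78.6 min and 149 and 143 min. Only *Rnf19a* was under 120 min.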

How the data were processed

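RNA-seq and SLAM-seq values of 2 mouse SSC lines were used. The authors deposited FPKM for 1 library per line, and the submitters' processing notes name kallisto and DESeq2, whose versions are not given in the sources used here. The half-lives, also deposited by the authors, are in minutes. They were obtained with SlamDunk and a decay curve fitted with nls in R over 12 libraries per line, and neither error nor depth is given. CRAC libraries (2 TAG/TAG and 2 Nanos2+/+) were not analysed here. The labels describe SSCs freed of feeders, and the methods describe sorted cells. Columns were matched to lines by their names, and 0 columns with values per sample were left unmatched.

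FPKM times the mean transcript length (GENCODE M21) times the depth gave whole reads, within 0.02, for 100% of 13867 genes with a length, and these are estimated counts that the authors' tool assigned. The recovery was tested on simulated data. Log2 differences used a pseudocount of 0.1 and genes with a mean FPKM of at least 1. Ratios carry 95% exact (Clopper-Pearson) intervals that cover counting error only. With 1 library per line no test was made. Half-lives were described against all transcripts, with limits of 1.5-fold and 120 min. 3′ UTRs came from 1 coding transcript per gene (GRCm38, GENCODE M21). Shared sequence was the percent of a gene's exonic 50-base windows found in other genes, and 24 of 113 members shared at least 5%.

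The genes named were the 10 members with the highest mean FPKM, the 10 with the shortest and the 10 with the longest half-lives, the 8 widest FPKM differences and the 6 widest half-life ratios each way (given where past the limits), all members on the study's bound list and up to 4 examples per role. Paralog and partner pairs outside this rule (*Rnf14*, *Rnf19b*, *Rnf20*, *Rnf212b*) and the members at hand in 1 kind of file were chosen after their values were seen. By name, 1 item is not reported here, though it is counted among the members. The members and lists were chosen with earlier results of these data known. Alternatives were another pseudocount, FPKM limit, scaling, half-life limit and fold. Analyses used Python 3.11.15, numpy 2.4.6, pandas 2.3.3, scipy 1.17.1 and matplotlib 3.10.9.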

Additional observations from a re-analysis of the deposited data

How the results depend on the processing

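The count of members below the median half-life in both lines stayed between 19 and 30 (27 as reported) over the alternatives run, which differ in members and background. The 30 came from the mean of both lines, with 55.6% of members beside 50% of all transcripts. The shares were 47.2% and 39.0% with half-lives up to 540 min. With a mean FPKM of at least 5 they were 47.8% and 39.4%. The count was 19 of 42 members (45.2%) that share under 5% of their 50-base windows with other genes, an alternative chosen after seeing the data. Beside it stands 39.8% of all transcripts, which were not filtered for shared sequence. The median half-life in TAG/TAG was 208 min with half-lives up to 1440 or up to 540 min, with the mean of both lines or without members that share sequence, and 215 min with a mean FPKM of at least 5, a limit that gave 210 min in TAG/+. The median log2 FPKM difference was −0.061 after centring, −0.050 with a pseudocount of 1, −0.047 with a mean FPKM of at least 5 and 0.013 when the libraries were rescaled to the same summed FPKM, which moved the median of all genes to 0.08. Members 2-fold higher in TAG/TAG and in TAG/+ numbered 2 and 1 with a mean FPKM of at least 5, 3 and 2 without members that share sequence, and 8 and 7 with no limit on FPKM. Rescaling gave 7 and 4. With a 2-fold limit on half-life, 2 members were longer in TAG/TAG and 1 in TAG/+. No paired analysis was possible because each line has 1 RNA-seq library and 1 fitted half-life per transcript, and no replicate could be left out for the same reason. Members with few reads have wide intervals, and the depth behind a half-life is unknown.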
